A study of Rattus norvegicus with 12 samples.

Results

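The comparison described here set INS-1 cells that received both an adenovirus for ChREBPβ and 11 mM glucose against INS-1 cells that received a GFP adenovirus and 2 mM glucose, so that 2 factors changed together. Its libraries were taken from the count table by their labels: 3 of ChREBPβ at 11 mM (b-11a, b-11b and b-11c) and 3 of GFP at 2 mM (GFP-2a, GFP-2b and GFP-2c), 6 of the 12 libraries of the series. The other 6 libraries held each factor alone, GFP at 11 mM and ChREBPβ at 2 mM, with 3 libraries in each group, and they are used below to ask which genes reached a large change only when both factors were present. INS-1 832/13 is an insulin-secreting line derived from a rat insulinoma. All groups carried an adenovirus, expressing GFP as control or mCherry-tagged mouse ChREBPβ, and the cells were kept for 48 h in the stated glucose. That time is the one given for the sequencing experiment, and a longer one stands in the general protocol. The study describes its expression heat map as averages over independent experiments, but the labels do not say whether libraries a, b and c came from separate cultures, so the p-values measure the spread between these libraries, which may in part be technical.

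ChREBP, encoded by Mlxipl, is a transcription factor that pairs with Mlx on carbohydrate response elements, which are E-box motifs arranged in tandem, and raises transcription of glycolytic and lipogenic enzymes when glucose metabolism increases. The full-length ChREBPα is held back in low glucose by an inhibitory region near its amino terminus. ChREBPβ starts from another promoter, lacks that region and is active at low glucose too. In β-cells the factor is known for its target Txnip, an inhibitor of thioredoxin, and for a part in the loss of β-cell identity and survival under prolonged high glucose, which is called glucotoxicity.

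Library totals were 25754488 to 32938546 counts in GFP at 2 mM and 57088794 to 60531215 in ChREBPβ at 11 mM, a ratio of the group means of 1.99, so depth differed in the same direction as the groups. With every library thinned to the smallest, 7117 genes were called in place of 7407. Of 28727 named entries, 14669 passed the filter on low counts. Levels are given as CPM, counts scaled to a common library size with TMM factors, and changes as log2 fold changes with the standard error (SE) of an edgeR quasi-likelihood fit over all 12 libraries. Scaling is relative, so a change in the total RNA per cell is not visible, and in bulk RNA fewer cells of a type and less RNA per cell cannot be told apart. The Mlxipl entry counts the rat gene, and its levels were 240.4, 252 and 277 CPM in GFP at 2 mM and 201, 181 and 183 CPM in ChREBPβ at 11 mM (log2 change -0.45, SE 0.05, edgeR adjusted p = 2.6e-07). An entry named ChREBPb, whose counted sequence is not stated, stood at 73.2, 78.0 and 82.2 CPM against 98.3, 84.3 and 81.4 CPM, and the groups overlapped (log2 change 0.18, SE 0.06, adjusted p = 0.021, under the minimum of 1.2-fold). Neither entry therefore checks the virus label.

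Against GFP at 2 mM, the cells with both factors showed nearly as many increases as decreases, and among genes at 5 CPM or more the increases reached further. A gene was called when its adjusted p was under 0.05 and its change at least 1.2-fold, and 3474 genes rose and 3933 fell, which is 23.7% and 26.8% of all tested genes. At 2-fold the counts were 852 higher (5.81%) and 1014 lower (6.91%). The groups did not overlap for 9646 genes (65.8%), and 90% of all tested genes lay between log2 changes of -1.186 and 1.168 with a median of -0.015. Among the 10475 genes that averaged 5 CPM or more over the 6 libraries, 132 rose and 17 fell by 4-fold or more. At 8-fold the quasi-likelihood test of edgeR gave 55 and 0, and at 32-fold 16 and 0. Over all tested genes, those at lower levels included, it gave 154 higher and 16 lower at 8-fold and 49 higher and 2 lower at 32-fold. The 0 genes lower at 5 CPM or more were also 0 at an unadjusted p under 0.05 and 0 by DESeq2, which gave 57 and 16 higher. Scaling to library totals in place of TMM lowered the median of all genes to -0.1311 and changed the split to 2530 higher and 5038 lower genes, so the share of calls that were higher was 33.4% there and 46.9% with TMM.

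**Figure D1:**
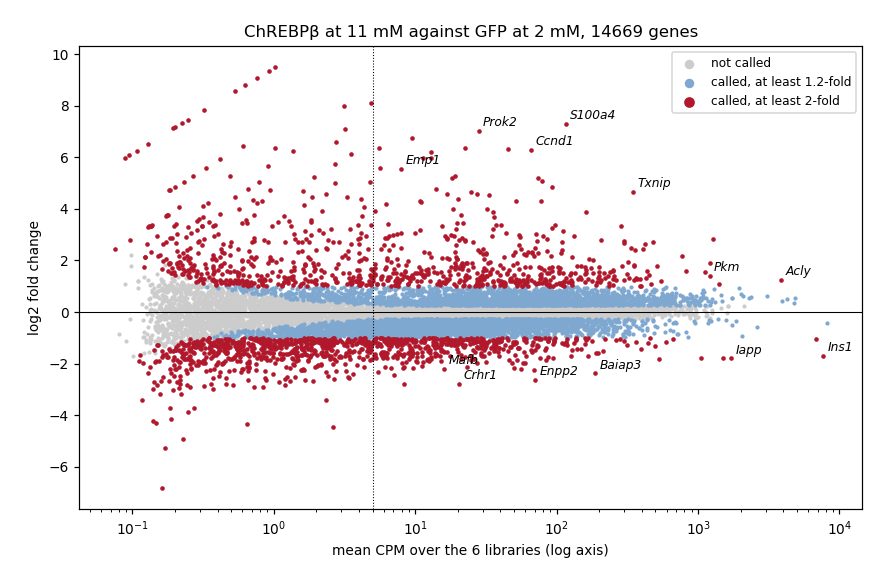
Log2 fold change of ChREBPβ at 11 mM over GFP at 2 mM (vertical axis) against the mean CPM over the 6 libraries (log horizontal axis) for 14669 genes, with called genes coloured and a dotted line at 5 CPM. Right of that line 55 genes lie at or above 8-fold higher and 0 at or beyond 8-fold lower.

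The 12 largest increases among called genes averaging 5 CPM or more with groups that did not overlap were led by genes nearly silent in the control cells. S100a4, which encodes a calcium-binding protein linked to cell motility, stood at 1.21, 1.57 and 1.57 CPM in GFP at 2 mM and at 201, 239 and 252 CPM in ChREBPβ at 11 mM. Every library with both factors was over 100 CPM and every control library under 2, a log2 change of 7.30 (SE 0.11, edgeR adjusted p = 8.7e-21). Prok2, a secreted ligand of the prokineticin receptors, went from 0.625, 0.496 and 0.160 CPM to 50.1, 56.6 and 60.3 CPM (log2 change 7.04, SE 0.18). The cyclin gene Ccnd1, which drives entry into the cell cycle, had 1.36, 1.66 and 1.89 CPM in the control libraries and 122, 133 and 135 CPM with both factors, a rise of 6.30 on the log2 scale (SE 0.10, adjusted p = 3.8e-20). The other secreted, matrix or membrane products among the 12 were the hedgehog ligand Ihh (log2 change 6.75), the leucine-rich repeat protein Islr2 (6.37), the tenascin Tnxb (6.33), the phospholipase Pla2g2f (6.19), the collagen chain Col5a3 (5.98), the metalloproteinase Adamts8 (5.97), the receptor partner Ramp1 (5.58) and the membrane protein Emp1 (5.56). The channel gene Calhm2 completed the set with a log2 change of 6.36. Several of these genes had well under 1 CPM in the control cells, where a log2 change rests on few counts.

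The 12 largest decreases under the same limits were smaller in size and included the receptor genes Crhr1 and P2ry1. Crhr1, the receptor for corticotropin-releasing hormone, stood at 35.4, 35.3 and 35.5 CPM in GFP at 2 mM and at 4.52, 5.74 and 5.10 CPM in ChREBPβ at 11 mM, and fell by 2.79 on the log2 scale (SE 0.10, adjusted p = 8.8e-15). Enpp2, the secreted lysophospholipase autotaxin, fell from 119, 124 and 121 CPM to 19.2, 18.2 and 21.3 CPM (log2 change -2.63, SE 0.06). Baiap3, a Munc13-related protein of dense-core vesicle traffic, had 296, 313 and 337 CPM in the controls and 64.5, 62.6 and 56.0 CPM with both factors (log2 change -2.37, SE 0.06). Groups that did not overlap were a condition for this set, and in these 3 genes the gap between them was wide. Others of the 12 were the complement protease C1r (log2 change -2.77), the tyrosine kinase Syk (-2.43), the dynein chain Dnai1 (-2.31), the glycosidase-like gene Glb1l2 (-2.26), the purinergic receptor P2ry1 (-2.21), Tmem173, which encodes STING (-2.18), the pseudokinase Nrbp2 (-2.18) and the amino acid transporter Slc16a10 (-2.18).

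**Figure D2:**
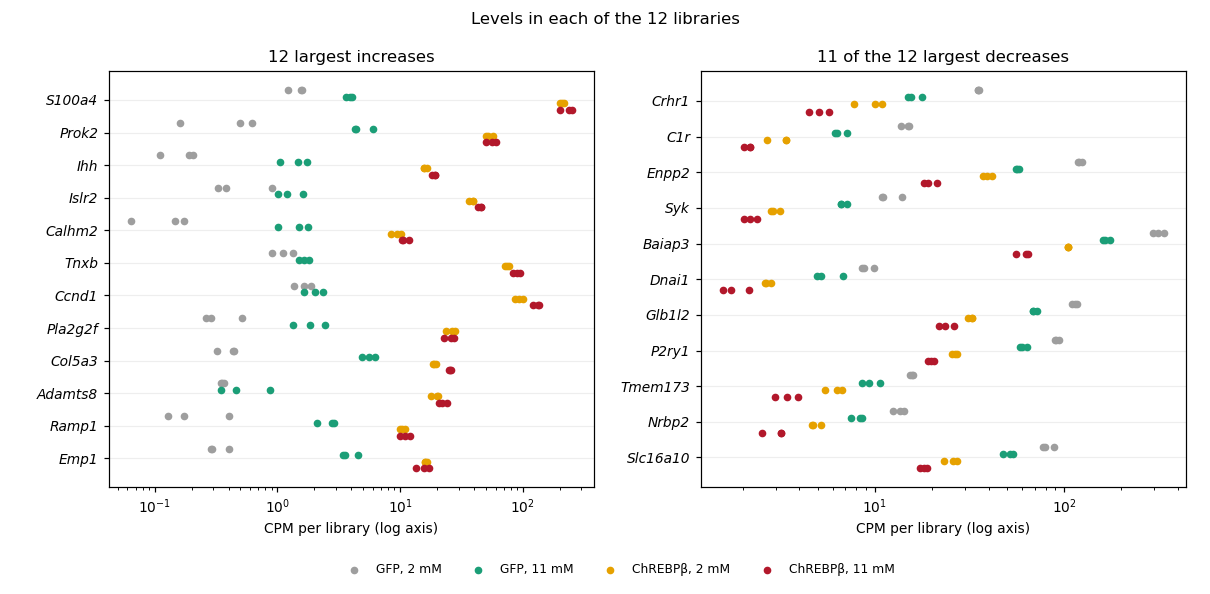
CPM (log axis) of the 12 largest increases and 11 of the 12 largest decreases in each of the 12 libraries, 1 point for each library and 1 colour for each group. In the upper genes both ChREBPβ groups lie above both GFP groups, and in some GFP at 11 mM lies well above GFP at 2 mM. Emp1, for example, has group means of 0.328 and 3.84 CPM in GFP and 16.2 and 15.4 CPM in ChREBPβ, each at 2 and 11 mM. In the lower genes the 4 groups step down from GFP at 2 mM to ChREBPβ at 11 mM, for example Enpp2 from 121 to 19.6 CPM in group means.

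Genes known as ChREBP targets rose as a group, with exceptions. Of 19 tested, 11 rose and 3 fell, where 23.7% of all tested genes rose and 26.8% fell. The median log2 change of the list was 1.251 and that of all tested genes -0.015. Txnip stood at 26.8, 24.3 and 27.7 CPM in the controls and at 662, 659 and 677 CPM with both factors, a 25.4-fold rise (log2 change 4.67, SE 0.06, adjusted p = 2.8e-22). Bhlhe40, a transcriptional repressor of the circadian system, rose from 30.0, 28.1 and 32.9 CPM to 228, 241 and 241 CPM (log2 change 2.97, SE 0.05). The glycerol-3-phosphate dehydrogenase gene Gpd1 rose from 295, 318 and 325 CPM to 2067, 2341 and 2260.5 CPM (log2 change 2.83, SE 0.06). In all 3 genes the groups were far apart. Pklr, the liver-type pyruvate kinase, had 126, 133 and 129 CPM in the controls and 442, 448 and 449 CPM with both factors (log2 change 1.78, SE 0.05, adjusted p = 4.8e-17). Acaca (log2 change 2.48), Tm6sf2 (2.46), Rgs16 (2.02), Fasn (1.54), Acly (1.25) and Klf10 (0.97) rose too. Scd had at most 3 counts in every control library and was at least 6.54-fold higher against that floor. Those that fell were the ketohexokinase gene Khk (log2 change -1.43), the lipase gene Pnpla3 (-0.72) and Mlxipl itself. The Mlxipl count is per gene, so it cannot show the ChREBPβ promoter alone. Arrdc4, an arrestin close to Txnip in sequence and a usual marker of ChREBP activity, stood at 199, 198 and 189 CPM against 227, 228 and 235 CPM. Its groups did not overlap, but the log2 change of 0.24 (SE 0.04, adjusted p = 1.3e-05) was under 1.2-fold. Its group mean was 277 CPM in GFP at 11 mM and 181 CPM in ChREBPβ at 2 mM, so the level with both factors lay between those of the single treatments.

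Promoter sequence was read from RefSeq for build GRCr8, in windows of 250 bases before to 50 bases after the start of each gene, and 16 of the 22 listed targets had a window (those of Txnip, Acaca, Fasn, Gpd1, Klf10 and Elovl6 were not used here). The pattern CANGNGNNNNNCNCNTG, a tandem E-box arrangement like that of the carbohydrate response element, was found in 188 of 33469 windows (0.562%), and the E-box CACGTG in 2148 (6.42%). Both patterns read the same on either strand. Among the targets the tandem pattern was found in Pklr and Rgs16, and CACGTG in Arrdc4, Bhlhe40 and Fgf21. Of the 12 largest increases, 8 had a window and 1, Prok2, held CACGTG, and of the 12 largest decreases, 7 had a window and 0 held either pattern. The following stretches, 5′ to 3′ on the gene's strand, are shown because they carry the pattern in genes with a value above, with the matched bases in capitals; a match is a description of letters and not of binding.
Pklr, chr2:176841081-176841127, plus strand, 168 bases before the start: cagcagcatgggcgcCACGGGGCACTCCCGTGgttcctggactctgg
Bhlhe40, chr4:143174215-143174250, plus strand, 220 bases before the start: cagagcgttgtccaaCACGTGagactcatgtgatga
Arrdc4, chr1:131793582-131793617, minus strand, 177 bases before the start: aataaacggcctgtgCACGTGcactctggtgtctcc
Prok2, chr4:133918033-133918068, minus strand, 120 bases before the start: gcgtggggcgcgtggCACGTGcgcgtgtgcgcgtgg
The genes with a match and a value above were all higher with both factors, but by different amounts. Bhlhe40 and Prok2 rose 2.97 and 7.04 on the log2 scale, and Pklr and Rgs16 rose by the values given above. Arrdc4 was higher by less than 1.2-fold and so was not called.

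Glycolysis rose along most of its length. Of 21 tested genes of glucose uptake and glycolysis, 15 rose and 1 (Aldoc) fell, with a median log2 change of 0.785, where 23.7% of all tested genes rose and 26.8% fell. Gpi, which follows hexokinase in the pathway, rose by 1.61 (SE 0.05), the muscle-type pyruvate kinase Pkm by 1.40 (SE 0.05), the phosphofructokinase Pfkl by 1.27 (SE 0.05) and the enolase Eno1 by 1.08 (SE 0.05), all on the log2 scale. Gapdh, often taken as a constant reference, went from 1221, 1344 and 1433 CPM to 2449.8, 2545 and 2604 CPM (log2 change 0.93, SE 0.05, adjusted p = 1.7e-12). Slc16a1, a lactate and pyruvate transporter that β-cells normally keep low, rose from 5.16 ± 0.608 to 37.8 ± 1.43 CPM (SD, n = 3; log2 change 2.86).

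Lipid synthesis changed in part, where 23.7% of all tested genes rose and 26.8% fell. Of 18 genes of fatty acid synthesis, 7 rose and 2 fell with a median of 0.226, and the increases were those of Acaca, Fasn, Acly and the phosphatidate phosphatase Lpin1 (log2 change 0.97) together with smaller ones, while the desaturase Fads1 fell by 0.55. Of 21 genes of cholesterol synthesis, 11 rose and 0 fell by the quasi-likelihood call of edgeR, with 0 lower at an unadjusted p under 0.05, 0 by DESeq2 and a median of 0.379. Of 22 genes of the citric acid cycle and the respiratory chain, 11 rose and 0 fell by each of these 3 counts, with a median of 0.27. Pyruvate carboxylase, Pc, which feeds the cycle with oxaloacetate, had the largest change of these at 1.17 (SE 0.05), and the ATP synthase subunit Atp5f1b rose by 0.54 (SE 0.04).

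The transcription factors that define the β-cell fell almost as a whole. Of 19 tested, 17 fell and 1 rose, with a median log2 change of -1.122, where 26.8% of all genes fell. The 1 that rose did so by 1.752 on the log2 scale, which is past 2-fold. Pdx1, which is needed for pancreas development and insulin transcription, stood at 218, 218 and 226 CPM in GFP at 2 mM and at 91.6, 95.0 and 96.3 CPM in ChREBPβ at 11 mM (log2 change -1.23, SE 0.04, adjusted p = 4e-15). Nkx6-1, which keeps β-cells from taking other endocrine fates, fell from 93.1, 90.6 and 102 CPM to 26.0, 23.4 and 24.1 CPM (log2 change -1.96, SE 0.06). For both genes each library with both factors was under 100 CPM and below every control library. Isl1 (log2 change -1.70), Glis3 (-1.70), Mnx1 (-1.57), Pax6 (-1.29), Mafa (-1.26) and Nkx2-2 (-1.16) fell by more than 2-fold as well. Foxa2 was not called (log2 change 0.26).

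Genes of insulin production and glucose sensing moved the same way. Of 23 tested, 18 fell and 2 rose, with a median of -1.053. Ins1 was at 10819, 11556 and 12662 CPM in the controls and at 3465, 3833 and 3518 CPM with both factors (log2 change -1.70, SE 0.06, adjusted p = 1.4e-15). Ins2 fell by 1.87 (SE 0.08), but reads of these near-identical genes can be split between them by the counting, so each value is uncertain. The amylin gene Iapp fell from 2645, 2742 and 2608 CPM to 751, 754 and 799 CPM (log2 change -1.80, SE 0.04), the proinsulin convertase Pcsk2 by 1.77 and the granule proteins Scg2 and Chgb by 1.83 and 1.05. The incretin receptors Glp1r and Gipr fell by 1.10 and 1.16. The exceptions were the glucose transporter Slc2a2, which rose by 0.63 (SE 0.04), and the granule chaperone Scg5, which rose by 0.47 (SE 0.05). Of 21 genes of granule exocytosis, 10 fell and 4 rose, with a median of -0.258, where 26.8% of all tested genes fell and 23.7% rose. The granule-docking GTPase Rab27a fell by 1.55 and the SNARE gene Snap25 by 0.51, while the synaptotagmin Syt4 rose by 1.04.

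Markers of other cells were read alongside, and the shares over all tested genes were 23.7% higher and 26.8% lower. Of 16 genes that are normally kept low in β-cells or mark dedifferentiation, 9 rose and 3 fell, with a median of 0.341. Sox9, a transcription factor of pancreatic progenitors, rose from 0.838 ± 0.219 to 8.88 ± 0.779 CPM (log2 change 3.38, SE 0.15), and the transglutaminase Tgm2 rose by 1.27. The gastrin gene Gast fell by 1.85. Of 12 markers of other islet endocrine cells, 3 passed the filter and 1 of these fell, with a median of -0.237. This was the glucagon gene Gcg, at 1589, 1666 and 1617 CPM in the controls against 451, 481 and 502 CPM (log2 change -1.77, SE 0.04), and its group mean was 433 CPM in ChREBPβ at 2 mM and 1657 CPM in GFP at 11 mM. Of 15 markers of exocrine, stromal, immune and endothelial cells found in the table, 4 passed the filter, with a median of 0.493. Of these 2 rose and 0 fell by edgeR (0 lower at an unadjusted p under 0.05 and 0 by DESeq2). Pdgfrb, a pericyte and fibroblast receptor, was at least 8.41-fold higher against the floor of 3 counts. The macrophage gene Cd68 rose by 0.88, a call lost with library totals (0.76, adjusted p = 0.0823), with upper quartile factors (0.82, adjusted p = 0.0617) and without any of 8 single libraries. Prss1, Cftr, Dcn and Ptprc had no count in either group, and the summed level of the list was 130.4 to 140.6 CPM in GFP at 2 mM and 144.9 to 148.1 CPM in ChREBPβ at 11 mM, most of it Krt7. The summed level of the β-cell factors was 2501 to 2553 CPM against 1487 to 1538 CPM, and that of the insulin list 42600 to 46090 CPM against 21980 to 22400 CPM.

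**Figure D3:**
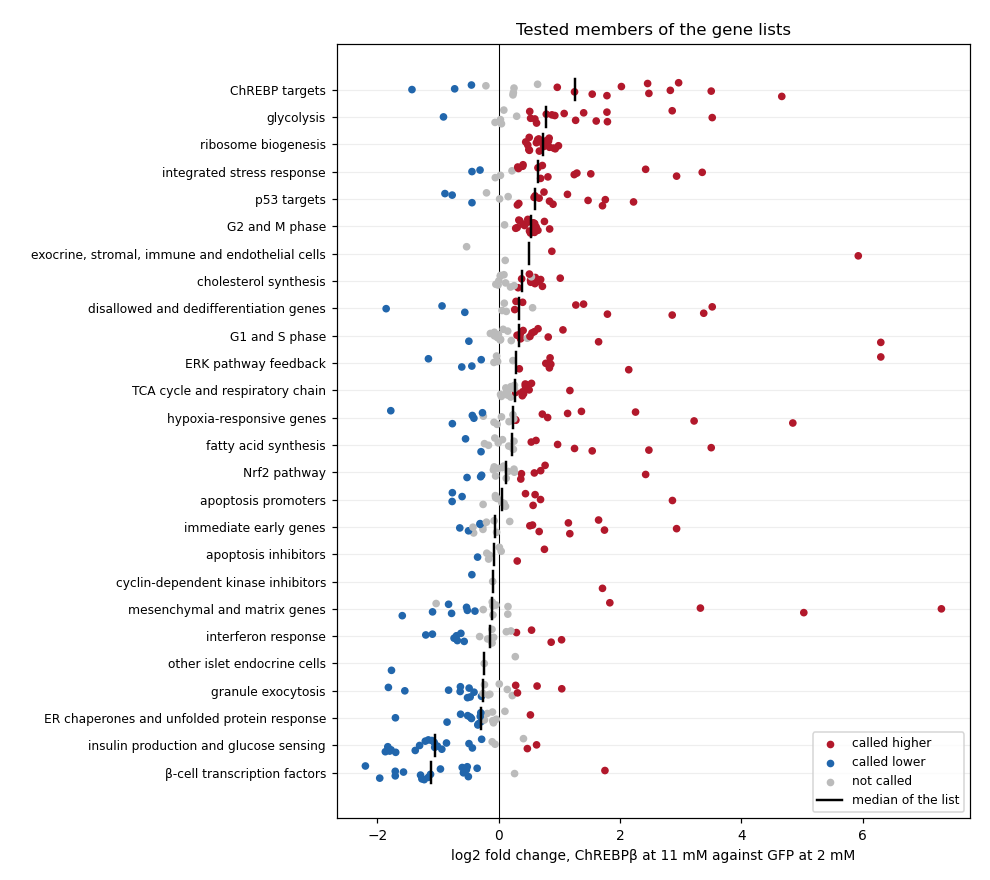
Log2 fold change of ChREBPβ at 11 mM over GFP at 2 mM for every tested member of 26 gene lists (horizontal axis), 1 strip for each list, with called increases in red, called decreases in blue, genes not called in grey and the list median as a black bar. The lists run from ChREBP targets (median 1.251) to β-cell transcription factors (median -1.122).

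Genes of cell division rose, and those of mitosis were nearly uniform, where 23.7% of all tested genes rose and 26.8% fell. Of 24 genes of the G1 and S phases, 12 rose and 1 fell, with a median log2 change of 0.33. Beside Ccnd1, the cyclin Ccnd2 rose by 1.65 (SE 0.06) and the ribonucleotide reductase subunit Rrm2 by 1.06 (SE 0.06), while Ccnd3 fell by 0.49. Of the Mcm helicase genes, which license replication, Mcm5 and Mcm7 rose by 0.55 and 0.59 and Mcm6 was not called (-0.07). Of 21 genes of the G2 and M phases, 20 rose and 0 fell by the quasi-likelihood call of edgeR (0 lower at an unadjusted p under 0.05 and 0 by DESeq2), with a median of 0.526, and no member reached 2-fold. The largest of these was the mitotic kinase Aurka, from 74.1 ± 2.20 to 133 ± 4.21 CPM (SD, n = 3; log2 change 0.84). Of 3 inhibitors of cyclin-dependent kinases, 1 rose and 1 fell, with a median of -0.098. Cdkn1a, which encodes p21 and arrests the cycle, stood at 49.2, 49.5 and 50.2 CPM in the controls and at 155, 166 and 167 CPM with both factors, a rise of 1.71 on the log2 scale (SE 0.05, adjusted p = 6e-17), and Cdkn2c fell by 0.44. All 19 tested genes of ribosome biogenesis rose, with a median of 0.725. The nucleolar proteins Npm1 and Ncl rose by 0.91 and 0.93, and the RNA polymerase I subunit Polr1b by 0.99.

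Death and stress genes gave a mixed picture, beside shares of 23.7% higher and 26.8% lower over all tested genes. Of 15 apoptosis promoters, 5 rose and 3 fell, with a median of 0.052 that turned to -0.065 with library totals and to -0.003 with upper quartile scaling. Bmf, a BH3-only protein, rose from 1.52 ± 0.211 to 11.1 ± 0.505 CPM (log2 change 2.86, SE 0.13) and Bcl2l11, which encodes Bim, by 0.69, while Bnip3 fell by 0.76 and Casp9 by 0.60. Of 8 apoptosis inhibitors, 2 rose and 1 fell, with a median of -0.07, and the increases were Birc5 (0.75), which is also a mitotic gene, and Bcl2 (0.31), whose call was lost with library totals (0.19, adjusted p = 0.123). Of 19 p53 targets, 13 rose and 3 fell, with a median of 0.601. Gadd45a rose by 2.22 (SE 0.06), Plk2 by 1.76, Phlda3 by 1.47, Aen by 1.13 and Ccng1 by 0.90, while Perp fell by 0.77.

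The branches of the stress response moved apart, where 23.7% of all tested genes rose and 26.8% fell. Of 20 endoplasmic reticulum chaperones and unfolded protein response genes, 12 fell and 1 rose, with a median of -0.298. Sdf2l1, a partner of the chaperone BiP, fell from 43.1, 48.3 and 45.3 CPM to 13.8, 14.0 and 14.3 CPM (log2 change -1.70, SE 0.07), the disulfide isomerase Pdia6 fell by 0.85 and BiP itself, Hspa5, by 0.34. Of 19 genes of the integrated stress response, 14 rose and 2 fell, with a median of 0.648. Psph, the last enzyme of serine synthesis, went from 51.5, 51.4 and 50.3 CPM to 495, 522 and 549.6 CPM (log2 change 3.35, SE 0.05, adjusted p = 2.2e-20), and the asparagine synthetase gene Asns rose by 1.52 and the serine synthesis gene Psat1 by 1.29. The transcription factor Atf3 rose by 2.93 and Atf4 by 0.69. Ddit3, which encodes CHOP, stood at 19.2, 18.2 and 17.9 CPM against 17.8, 16.4 and 19.1 CPM, and the groups overlapped (log2 change -0.05, SE 0.07, adjusted p = 0.51). Of 19 genes of the Nrf2 pathway of antioxidant defence, 6 rose and 3 fell, with a median of 0.125. The cystine transporter Slc7a11 rose by 2.42 (SE 0.23), but from 0.625 ± 0.154 to 3.36 ± 0.797 CPM, and the transaldolase Taldo1 by 0.77, while Nqo1 fell by 0.52.

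Signalling lists showed large single changes and small medians. Their counts stand beside 23.7% of all tested genes that rose and 26.8% that fell. Of 20 immediate early genes, 8 rose and 4 fell, with a median of -0.054, and Junb and Myc rose by 1.74 and 1.65 while Egr1 fell by 0.64. Of 16 feedback genes of the ERK pathway, 8 rose and 4 fell, with a median of 0.289. The phosphatase Dusp4 rose by 2.14 and Phlda1 fell by 1.16. Of 19 mesenchymal and matrix genes, 4 rose and 7 fell, with a median of -0.105. Here S100a4 and the repressor Snai1 (0.280 ± 0.174 to 9.24 ± 0.168 CPM, log2 change 5.03) rose and S100a6 was at least 5.79-fold higher against the floor of 3 counts, whereas Fn1 fell by 0.78 and Vim by 1.59. Of 21 hypoxia-responsive genes, 9 rose and 5 fell, with a median of 0.236. The prolyl hydroxylase Egln3 rose by 3.22, the glycolytic regulator Pfkfb3 by 2.26 and Adm at least 3.98-fold against the floor, while Stc1 fell by 1.78. Of 18 interferon response genes, 4 rose and 7 fell, with a median of -0.145. Stat2 fell by 1.2, and Irf7 rose by 0.87.

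The single treatments show how much of this was present with each factor alone. All 3 comparisons against GFP at 2 mM share those control libraries, which can raise the overlap between them. Their values and overlaps are given side by side as a description, and no overlap was tested. ChREBPβ at 2 mM gave 6476 called genes (44.1%) and GFP at 11 mM gave 2963 (20.2%). Of the 1866 genes past 2-fold with both factors, 1340 (727 higher, 613 lower) also had a fitted change of at least 2-fold in the same direction with the virus alone. With glucose alone, 332 (218 higher, 114 lower) did, and a call was not required for either count. Among all tested genes, 9.93% were called at 2-fold with the virus alone and 2% with glucose alone. The list medians for the virus alone and for glucose alone were 1.145 and 0.504 in the ChREBP targets, 0.609 and 0.354 in glycolysis, -0.875 and -0.331 in the β-cell factors, and -0.83 and -0.23 in insulin production. For each of these 4 lists the median with both factors was farther from 0 than either, but this did not hold for every list. The medians with both factors and with the virus alone were 0.379 and 0.381 in cholesterol synthesis and -0.145 and -0.332 in the interferon response. In the mesenchymal and matrix genes they were -0.105 and -0.282. Taken from the other side, ChREBPβ at 11 mM differed from GFP at 11 mM in 4904 genes (33.4%) and from ChREBPβ at 2 mM in 567 (3.87%).

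Of the 567 genes that separated the ChREBPβ groups, 145 were higher and 422 lower at 11 mM, and 28 of them were past 2-fold (7 higher, 21 lower). Only 4 of these 28 averaged 5 CPM or more, all lower, and they are named after their values were seen. Enpp2 fell from 39.2, 41.6 and 37.2 CPM in ChREBPβ at 2 mM to 19.2, 18.2 and 21.3 CPM at 11 mM, by 1.01 on the log2 scale (SE 0.06, adjusted p = 4.8e-09). Uap1l1, related to an enzyme of nucleotide sugar synthesis, fell from 34.4, 26.0 and 36.3 CPM to 10.9, 11.5 and 12 CPM (log2 change -1.49, SE 0.10). It was already at 14.4, 12.3 and 12.3 CPM in GFP at 11 mM, against 39.9, 39.7 and 42.9 CPM in GFP at 2 mM, so it was low in both groups at 11 mM. The receptor kinase Mertk and the contactin Cntn3 fell by 1.24 and 1.44 between the ChREBPβ groups.

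A gene was placed in the class that reached 2-fold only with both factors when it was called at 2-fold in ChREBPβ at 11 mM and changed by less than 2-fold in each single treatment. The class held 476 genes, 109 higher (0.743% of tested genes) and 367 lower (2.5%). The changes that chose these genes are a description, and no test is given for the class. Its median log2 changes among the higher genes were 1.108 with both factors, 0.848 with the virus alone and 0.424 with glucose alone, and among the lower genes -1.155, -0.813 and -0.457. In 376 of the 476 (79 higher, 297 lower) the single changes added on the log2 scale already came to 2-fold or more, and in 100 they did not. Both single changes were called at 1.2-fold in 253 genes, the virus alone in 117, glucose alone in 1 and neither in 105. All 105 of the last kind had a mean below 5 CPM, with a highest value of 3.975 and a median of 0.41, so no member without a single call averaged 5 CPM or more. No limit on level was set for the class, and 227 of its members (50 higher, 177 lower) averaged 5 CPM or more. The rule does not ask that the joint level differ from that of a single treatment. Only 114 of the 476 (13 higher, 101 lower) were also called against each single treatment, in the direction of the joint change.

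The members just inside and just outside the limits show how narrow the margins were. Cd200 (log2 change -1.0 with both factors, -0.95 with the virus alone) and Ccdc136 lay just inside the 2-fold limit, and Tada1 (1.0 with both, 0.89 with the virus alone) and Fam214b just outside it. Ahcyl2 and Tnfaip8l1, each at 0.99 with the virus alone, lay just inside the limit for a single treatment, and Scgn (-1.0) and Zfp36 (1.0) just outside it. Over 21 other ways of processing the counts, 120 of the 476 members (25.2%) stayed in the class throughout, where a gene removed by a stricter filter on low counts was taken as lost.

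Among the members at 5 CPM or more, the increases were led by Plat, which encodes tissue plasminogen activator. It stood at 3.90, 3.41 and 3.62 CPM in GFP at 2 mM, at 5.82, 6.35 and 6.13 CPM in GFP at 11 mM, at 4.51, 6.04 and 4.78 CPM in ChREBPβ at 2 mM and at 10.6, 9.72 and 10.5 CPM with both factors. Each single group lay above the controls and below the joint group, with log2 changes of 0.75 (SE 0.12) for glucose, 0.51 (SE 0.12) for the virus and 1.5 (SE 0.12) for both. Adgrv1, an adhesion receptor, had group means of 13.2 ± 1.11, 17.6 ± 1.41, 23.2 ± 1.30 and 30.8 ± 2.05 CPM in the same order (SD, n = 3). Its single changes of 0.41 and 0.81 added to the joint change of 1.22. The spliceosomal gene Snrpa1 had 49.1, 75.0, 96.0 and 113 CPM, and there the joint change of 1.2 was less than the sum of the single changes, 0.61 and 0.97. The other increases were Cngb3 (1.26), Phospho1 (1.21), Arid3b (1.2), Lfng (1.2), Eif4e2 (1.18), Ahcyl2 (1.16) and Palld (1.15), genes of a cyclic nucleotide-gated channel, a phosphatase, a DNA-binding protein, a Notch-modifying glycosyltransferase, a cap-binding protein, a homologue of adenosylhomocysteinase and an actin-associated protein. Against ChREBPβ at 2 mM, only Plat, Cngb3 and Adgrv1 of these increases were called higher with both factors. The rest were not called there, so their joint level was not shown to differ from that with the virus alone by 1.2-fold.

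Among the decreases of the class, Muc13, a transmembrane mucin, had 131, 130.2 and 142 CPM in GFP at 2 mM, 76.3, 80.1 and 73.7 CPM in GFP at 11 mM, 69.6, 66.2 and 66.8 CPM in ChREBPβ at 2 mM and 41.3, 39.7 and 40.9 CPM with both factors. No group overlapped another, and the log2 changes were -0.81, -0.99 and -1.73. The sorting receptor Sort1, which carries proteins between the Golgi and lysosomes, had group means of 56.9 ± 0.766, 38.0 ± 1.83, 29.3 ± 0.609 and 19.5 ± 1.12 CPM in that order (SD, n = 3; log2 change -1.55 with both). Rab3b, a GTPase of secretory vesicles, had 66.6, 38.0, 35.5 and 23.7 CPM, and the metallothionein Mt1 had 8.75, 4.66, 4.79 and 2.94 CPM. The log2 changes with glucose alone and with the virus alone were -0.81 and -0.91 in Rab3b, -0.91 and -0.87 in Mt1 and -0.59 and -0.96 in Sort1. The remaining ones were Ebf4 (-1.78), Tctex1d2 (-1.66), Lynx1 (-1.63), Idua (-1.61), Sdsl (-1.52) and Rgl1 (-1.52). Of the β-cell genes above, Mafa (-1.26 with both, -0.88 with the virus, -0.50 with glucose), Glp1r (-1.10, -0.64 and -0.63), Gipr, Nkx2-2, Ptprn and Scg3 belonged to this class, and of the p53 targets Aen. Genes of other lists above were members too, namely Eno1, Rrm2, Syt4, Khk and Stat2, but none of these under every other way of processing. The class held 3.24% of all tested genes. Of the 20 named, 8 stayed in the class under every one of the 21 other ways of processing (Plat, Cngb3, Adgrv1, Snrpa1, Eif4e2, Tctex1d2, Mt1 and Sdsl), and so did Gipr, Glp1r, Mafa, Ptprn and Aen, but not Nkx2-2 and Scg3.

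Lfng was 1 of 3 members of the 10 increases whose RefSeq window held CACGTG, with Adgrv1 and Phospho1, of 8 with a window, and Idua was the 1 among 6 decreases with a window. Over all windows the share with CACGTG was 6.42%, and no difference from it was tested. The tandem pattern was found in 0 of these 14 windows, where it was in 0.562% of all, so these few windows cannot show a lack of it. The stretch of Lfng is shown as the example of this set, with the E-box in capitals.
Lfng, GRCr8, chr12:19153025-19153060, minus strand, 127 bases before the start: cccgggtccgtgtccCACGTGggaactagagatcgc

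**Figure D4:**
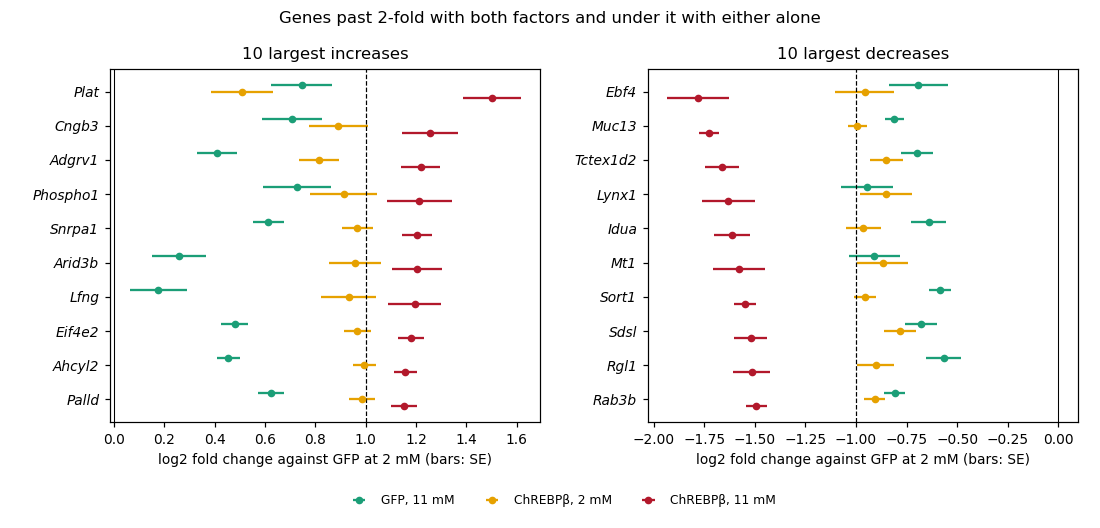
Log2 fold changes against GFP at 2 mM (horizontal axis, bars are SE) for the 10 increases and 10 decreases of the class past 2-fold only with both factors, with 1 colour each for GFP at 11 mM, ChREBPβ at 2 mM and ChREBPβ at 11 mM and dashed lines at 2-fold. The joint points lie outside the dashed lines and both single points inside, for example Plat at 1.5 against 0.75 and 0.51.

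Whether the joint change differed from the sum of the single changes was tested for every gene as the interaction of virus and glucose, which called 925 genes (6.31%). Among genes called with both factors the interaction pointed against the joint change in 796 and along it in 23 (21 higher, 2 lower). Txnip is the plainest case of the former: its means were 26.3, 351, 457 and 666 CPM in GFP at 2 mM, GFP at 11 mM, ChREBPβ at 2 mM and ChREBPβ at 11 mM, the single log2 changes of 3.74 and 4.12 sum to 7.86, and the joint change was 4.67 (interaction -3.20, SE 0.07, adjusted p = 7.3e-17). For 435 of the 476 genes of the class above the interaction was not called, 39 had it against the joint change, and 2, Ltbp3 and Pdk2, had it along the joint change. An interaction that was not called does not show that the changes add exactly.

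The 23 genes whose joint change exceeded the sum are described after their values were seen. Cpt1a, the carnitine palmitoyltransferase that admits fatty acids to mitochondria, stood at 82.4, 83.7 and 80.9 CPM in GFP at 2 mM, 92.4, 89.6 and 88.5 CPM in GFP at 11 mM, 68.4, 71.0 and 72.1 CPM in ChREBPβ at 2 mM and 111, 110.1 and 104 CPM with both. The log2 change with the virus alone was -0.22, under 1.2-fold, and that with both factors was 0.40, an interaction of 0.49 (SE 0.06, adjusted p = 2.9e-05). Acaa2, a thiolase of mitochondrial fatty acid oxidation, had 51.3 ± 2.88, 58.8 ± 2.10, 50.4 ± 1.06 and 73.8 ± 3.16 CPM in the same order (SD, n = 3; interaction 0.35, SE 0.07, adjusted p = 0.0040). In Acaa2 the ChREBPβ group at 2 mM overlapped the controls and the joint group lay above all others. Ltbp3, which binds latent TGFβ in the matrix, had 162, 148, 279 and 338 CPM (interaction 0.41, SE 0.05, adjusted p = 3.4e-05). The hypoxia and stress gene Ndrg1 had 460.1, 419, 464 and 557 CPM (interaction 0.40), and only the group with both factors was called against the controls (0.28). That call fell under 1.2-fold with upper quartile factors (0.22), with library totals (0.16) and without GFP 2 mM a, ChREBPβ 11 mM b or ChREBPβ 11 mM c (0.25 to 0.26).

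In other genes of this kind the joint level was within 1.2-fold of that with the virus alone, and the gene fell with glucose in GFP cells. Glul, the glutamine synthetase, had 186, 127, 301 and 289 CPM in that order (interaction 0.49, SE 0.07), and Ppard, a nuclear receptor of fatty acid metabolism, had 27.7, 22.8, 56.6 and 57.6 CPM (interaction 0.31, SE 0.08). The pyruvate dehydrogenase kinase Pdk2 had 12, 9.56, 23.6 and 25.6 CPM (interaction 0.46, SE 0.11). Flrt1 (interaction 0.71), Tmem200a (0.63), Ppp1r16b (0.58) and Nnat (0.34) belonged here too. Among the potassium channel genes, Kcne2 had 2.76, 2.00, 8.53 and 10.6 CPM (interaction 0.79) and Kcnd3 had 6.47, 5.06, 10.3 and 11.7 CPM (interaction 0.56). Kcne2 was more than 1.2-fold apart between the ChREBPβ groups (log2 change 0.32), but that difference was not called (edgeR adjusted p = 0.119). The remaining increases were Lgals9 (interaction 0.32), Bmp3 (0.31), Fstl4 (0.41), Ppfia2 (0.40), Tprg1l (0.31), Unc5b (0.39) and 2 entries known by a locus name. The 2 decreases were Ano8 (-0.29) and an entry whose name had become a date. Of the 23, 7 kept the call under all 21 other ways of processing: Cpt1a, Acaa2, Ltbp3, Glul, Flrt1, Tmem200a and Ppp1r16b.

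**Figure D5:**
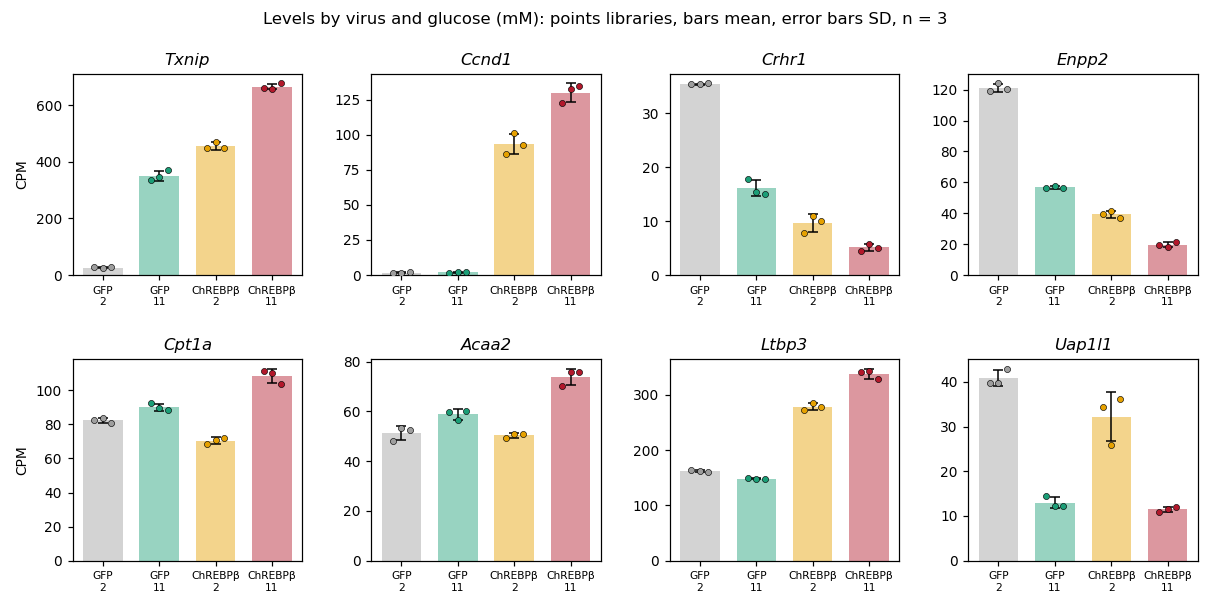
CPM in the 4 groups for Txnip, Ccnd1, Crhr1, Enpp2, Cpt1a, Acaa2, Ltbp3 and Uap1l1, with points for the 3 libraries of each group, a bar at their mean and error bars of 1 SD. Txnip and Ccnd1 are highest and Crhr1 and Enpp2 lowest with both factors, and Cpt1a dips with ChREBPβ at 2 mM (70.5 CPM) and peaks with both (108 CPM).

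A second class asked for more than either factor alone: genes called with both factors that also differed, in the same direction, from each single treatment. It held 385 genes, 82 higher (0.559%) and 303 lower (2.07%), and 253 of them were past 2-fold. Over the 21 other ways of processing, 180 of the 385 (46.8%) stayed in this class throughout, and of the members named here Tnxb, Ppp1r3c, C1r and Dnai1 did not. Decreases thus made up most of both classes, whereas among all joint calls 46.9% were higher. The largest increases of this class at 5 CPM or more were Tnxb, Ccnd1, Col5a3, Acan, Ppp1r3c, Aif1l, Ntng2, Txnip, Ngfr and Lgals9. Ccnd1 had a mean of 93.4 CPM with the virus alone, 2.01 CPM with glucose alone and 129.9 CPM with both, so glucose raised it under ChREBPβ by 0.47 on the log2 scale (SE 0.06) and was not called under GFP (0.28, SE 0.17), and the difference of these effects was not called either (0.19, SE 0.18, adjusted p = 0.62). Lgals9, a secreted lectin, had 133 CPM with the virus alone, 18.2 CPM with glucose alone and 178 CPM with both, and there the difference was called (0.32, SE 0.08, adjusted p = 0.012). Ppp1r3c, which targets protein phosphatase to glycogen, had 28.8, 4.27 and 35.4 CPM in that order. It was the 1 of 6 increases with a RefSeq window whose promoter held CACGTG (6.42% of all windows), shown here with the motif in capitals.
Ppp1r3c, GRCr8, chr1:243878561-243878596, minus strand, 54 bases before the start: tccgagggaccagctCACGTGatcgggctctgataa

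The 10 largest decreases of this class were all among the 12 largest decreases of the whole comparison, with Crhr1, C1r, Enpp2, Baiap3, Dnai1, Glb1l2, P2ry1, Tmem173 and Nrbp2 among them. Crhr1 had 16.1 ± 1.48 CPM with glucose alone, 9.58 ± 1.66 CPM with the virus alone and 5.12 ± 0.609 CPM with both (SD, n = 3), and Enpp2 had 56.7, 39.4 and 19.6 CPM. In both genes the interaction was not called, at 0.21 (SE 0.15, adjusted p = 0.47) and 0.09 (SE 0.08, adjusted p = 0.59). Of the 12 largest increases, by contrast, 3 (Tnxb, Ccnd1 and Col5a3) were in this class. The other 9 were outside it, such as S100a4 with 209.9 and 231 CPM and Prok2 with 53.3 and 55.6 CPM. The cell cycle inhibitor Cdkn1a (69.2 CPM with glucose alone, 118 CPM with the virus alone and 163 CPM with both) and Gpd1 (603, 1686 and 2223 CPM) belonged to this class as well.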

How the data were processed

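Total RNA of INS-1 cells was amplified, sequenced in paired-end reads and counted per gene by the authors, who deposited raw counts of 12 libraries without normalization. The build Rnor_6.0 and edgeR are named in the submitters' processing notes; the aligner and counter are not given in the sources used here. The same table holds group means of the raw counts, computed by the authors and not used. Samples were grouped by their titles. An entry without a gene name (0.0043% to 0.006013% of a library) was left out. The table held 26 names that a spreadsheet had turned into dates and 2 duplicated names. RefSeq symbols (GRCr8) matched 17197 names and were used for promoter sequence only, so no coordinates of the counted genes are given.

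Genes were filtered with filterByExpr by group, scaled by TMM and fitted with the quasi-likelihood model of edgeR 4.0.16 (R 4.3.3, limma 3.58.1) over all 12 libraries with the group as factor, and contrasts were adjusted by Benjamini-Hochberg over all 14669 tested genes. A call needed an adjusted p under 0.05 and 1.2-fold; a large change was 2-fold. SE is the log2 change divided by the square root of F. Where no control library had more than 3 counts of a gene, its change is given as a bound. Named genes were the 12 largest increases and decreases and the 10 largest of each class among called genes averaging 5 CPM or more with groups that do not overlap, the genes nearest to the limits, and members of 26 lists. Some genes that met these rules are not reported here. The scripts were checked on simulated data. The members and lists were chosen with earlier results of these data known. SEs and p-values include the spread between libraries, which differed by more than counting noise, and amplified reads are not independent molecules. The alternatives were DESeq2 1.42.0, RLE and upper quartile factors, library totals, other filters, the likelihood ratio test, thinned counts, a replicate block, a fit of the 2 groups, other fold limits and leaving out each library. Figures were drawn with matplotlib 3.10.9 in Python 3.11.15.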

Additional observations from a re-analysis of the deposited data

Results flagged for a closer look

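The effect of ChREBPβ at 11 mM differed from its effect at 2 mM, by the edgeR interaction test, in 925 genes, and among the named genes in the following, each given as the log2 effect at 11 mM minus that at 2 mM. Among the largest increases it was -1.25 for S100a4, -3.47 for Prok2, -2.81 for Ihh, -1.04 for Islr2, -3.21 for Calhm2, -2.50 for Pla2g2f, -3.39 for Col5a3, -3.44 for Ramp1 and -3.64 for Emp1, so the virus raised these genes less in high glucose. Among the largest decreases it was 0.61 for C1r and 0.28 for Glb1l2. In the class past 2-fold only with both factors it was -0.38 for Snrpa1, -0.27 for Eif4e2, -0.29 for Ahcyl2 and -0.46 for Palld. In the class beyond both single treatments it was -1.34 for Acan, -1.86 for Ppp1r3c, -0.46 for Aif1l and -3.20 for Txnip, against 0.32 for Lgals9, the one positive value among the increases named here. Of the 925 calls, 485 (52.4%) held under all 21 other ways of processing, and among the genes named here those of S100a4, Col5a3, Snrpa1, Palld, Acan, Ppp1r3c, Aif1l and Txnip did, while the rest were lost in at least 1, where a gene removed by the filter of at least 10 counts in every library counts as lost. Several control levels lay below 1 CPM, where the effect at 2 mM rests on few counts, and the part of this in the differences was not tested.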

How the results depend on the processing

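No called result among 504 followed genes changed direction; of 368 called with both factors, 327 stayed called under all 16 settings that give single genes. The class past 2-fold only with both factors held 777 genes at a limit of 1.5-fold, 287 at 3-fold and 105 when neither single change might be called, so its size depends on the limit. Leaving out each library in turn gave 7178 to 7486 calls with both factors, 1847 to 1921 at 2-fold, 451 to 539 in that class, 278 to 403 beyond both single treatments and 669 to 1078 for the interaction. The count beyond both single treatments fell to 278 without ChREBPβ 2 mM c. Membership was less stable than size: DESeq2 shared 433 of the 476 genes (91%), thinned counts 353 (74.2%) and library totals 307 (64.5%). Of interaction calls 24.8% were higher, and 35.3% with upper quartile factors. With a replicate block the counts were 7379, 1860, 474, 372 and 912 in the order above. The labels do not say that letters mark shared cultures, and the correlations of same-letter deviations between the 2 groups were 0.0644, 0.0158 and 0.0474, all under 0.1, so the letters were not taken as pairs, although each library correlated best with its own letter. Depth limits the genes under 5 CPM.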
